A study of Arabidopsis thaliana with 9 samples.

Results

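ICL (AT3G21720, chromosome 3) encodes isocitrate lyase of Arabidopsis thaliana, and its signal was followed over 9 Affymetrix ATH1 arrays of root RNA. ICL was chosen by its signal on these same arrays, so its levels are given as a description with no test. It was read by 1 probe set out of 22746 probe sets other than controls, and it is 1 of 13356 genes for which the platform's annotation gave a probe set with a single symbol. The genes compared with it were selected on a Pearson correlation of 0.95 or more between their log2(signal + 16) and that of ICL over 7 arrays, leaving out Col-0 replicates 2 and 3. That choice gave 12 of the other 13355 genes.

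The 9 arrays came from 3 lines with 3 arrays each. They are the wild type Col-0 (stock N1092) and the lines named cngc1-3 and cngc19, both labelled as T-DNA knock outs in the Col-0 background. All plants grew in agar boxes for 18 days and in aerated hydroponics for 7 more. On day 25 they stood at growth stage 3.90, with a rosette and no flowering stem, and the roots were taken. A tube held the bulked roots of 20 to 30 plants. The series title names caesium toxicity, while the labels list no caesium treatment. The CNGC genes, which encode cyclic nucleotide-gated cation channels, were not analysed here, and the mutations were not checked on the arrays.

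Isocitrate lyase splits isocitrate into succinate and glyoxylate, the first step that is particular to the glyoxylate cycle. Malate synthase then joins glyoxylate with acetyl-CoA. Together they bypass the steps of the citric acid cycle that release carbon dioxide, so that acetyl-CoA from fatty acids can be turned into sugar. In Arabidopsis the cycle is best known from germinating seedlings that live on seed oil. Its genes are also known to respond to sugar shortage and senescence in older tissue, and ICL is usually low in green plants.

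ICL was dim on all Col-0 arrays, intermediate on all cngc1-3 arrays, and split within cngc19. The MAS5 signal, the array maker's summary of a probe set on a linear scale, was 13.0, 22.4 and 10.35 on Col-0 replicates 1, 2 and 3. On the cngc1-3 arrays it was 54.7, 59.0 and 82.0. On the cngc19 arrays it was 381, 412 and 3.77. Thus cngc19 replicates 1 and 2 held the highest values of the series and cngc19 replicate 3 the lowest, 109-fold apart within the line. The highest value was 2.16 times the lowest in Col-0 and 1.5 times in cngc1-3.

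**Figure D1:**
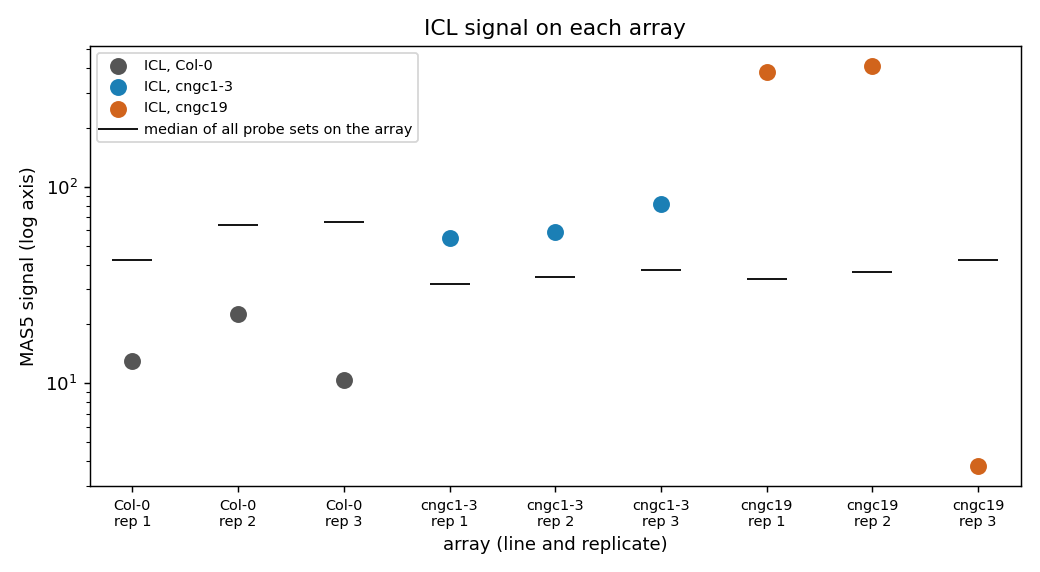
The MAS5 signal of ICL (points, log axis) is plotted for each array by line and replicate, and the short bar is the median of all probe sets on that array. ICL lies under the bar on all 3 Col-0 arrays and on cngc19 replicate 3, above it on the cngc1-3 arrays at 54.7 to 82.0, and at 381 and 412 on cngc19 replicates 1 and 2.

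The rank of ICL among the probe sets of each array gave the same picture without relying on the scale of the array. Probe sets differ in how well they hybridise, so a rank is of use only to compare the same probe set between arrays. Counted from the brightest of 22746, ICL ranked 16549, 17108 and 18740 on the Col-0 arrays. It ranked 8610, 8659 and 7032 on the cngc1-3 arrays. On the cngc19 arrays it ranked 1821, 1664 and 19451. ICL was thus brighter than 92.0% and 92.7% of probe sets on cngc19 replicates 1 and 2, and brighter than 14.5% of them on replicate 3.

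Set against the array's median, the signal of ICL was 0.309, 0.351 and 0.156 of it on the Col-0 arrays. It was 1.71, 1.70 and 2.18 times the median on the cngc1-3 arrays. It was 11.2 and 11.3 times the median on cngc19 replicates 1 and 2, and 0.09 of it on replicate 3. By all of these measures the cngc1-3 arrays lay between the Col-0 arrays and cngc19 replicates 1 and 2. No detection calls were used here, so whether the dim values differ from background was not tested.

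By line, the mean signal was 15.25 ± 6.33 (SD, n = 3) in Col-0, 65.2 ± 14.65 (SD, n = 3) in cngc1-3 and 266 ± 227 (SD, n = 3) in cngc19. On the log2(signal + 16) scale the means were 4.95 ± 0.28, 6.33 ± 0.25 and 7.23 ± 2.53 (SD, n = 3 each). The mean of cngc19 lies in a gap between its own arrays. In the fit of all 9 arrays with limma, ICL was 1.38 (SE 0.94) higher in cngc1-3 than in Col-0 and 2.28 (SE 0.94) higher in cngc19 than in Col-0. The difference of cngc1-3 from cngc19 was -0.90 (SE 0.94). Each SE rests on a spread pooled over the 3 lines, to which cngc19 added most. It is thus not the spread of Col-0 and cngc1-3 alone.

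The order of the line means was Col-0, cngc1-3, cngc19, but only the lower pair of neighbours was separated array by array. Every cngc1-3 array was above every Col-0 array for ICL. The same absence of overlap in this direction was seen for 13.1% of the 13648 tested probe sets. Both rest in part on Col-0 replicates 2 and 3, which stood apart from the other arrays over all tested probe sets, as given below. The cngc19 arrays overlapped both other lines. Because cngc19 replicate 3 sets the spread, the difference from Col-0 was 3.74 without it, and that of cngc1-3 from cngc19 was -2.36. Without cngc19 replicate 2 these values were 1.52 and -0.14, and without cngc19 replicate 1 they were 1.58 and -0.19.

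ICL had its widest range in the line where most genes had a narrow one. Its values ranged over 4.44 on the log2 scale within cngc19, where the median tested probe set ranged over 0.57, and 29 of 13648 probe sets (0.212%) had a wider range. ICL was chosen by its signal on these same arrays, so that share is a description and no test. In cngc1-3 the range of ICL was 0.47 against a median of 0.59, and 63.6% of probe sets had a wider range. In Col-0 it was 0.54 against a median of 1.87, and 94.6% had a wider range. ICL was under the array median on all Col-0 arrays, and adding 16 compresses the range of so dim a signal, so its narrow range there says nothing of how steady it was.

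Several arrays stood apart over all tested probe sets, which bears on each comparison. Col-0 replicate 2 correlated at -0.040 to -0.019 with the 7 arrays used for the correlation, and Col-0 replicate 3 at 0.259 to 0.376. Spiked-in control signals were 16.5 and 6.88 times the median of arrays on those Col-0 arrays and 0.718 to 1.50 times on the others. The cngc19 replicate 3 array correlated at 0.95 with Col-0 replicate 1 and at 0.803 and 0.814 with the other cngc19 arrays, which correlated at 0.985 with each other. The ratio of 3′ to 5′ signal of actin, a sign of RNA quality, was 200 on cngc1-3 replicate 3 and 1.34 to 5.81 on the others. Their part in the ICL values was not tested. Without Col-0 replicates 2 and 3, the ICL differences were 1.47 for cngc1-3 and 2.37 for cngc19 against Col-0 replicate 1.

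The tissue labelled as root was checked with marker genes. PYK10, an abundant beta-glucosidase of root ER bodies, read 4398, 261 and 448 on Col-0 replicates 1, 2 and 3, 5559, 4891 and 4690 on the cngc1-3 arrays and 5434, 4409 and 3762 on the cngc19 arrays. It was thus lowest on Col-0 replicates 2 and 3. The summed signal of the 4 root markers with a named probe set, of 27 listed, was 4109 to 5841 on the 7 arrays and 729 and 537 on Col-0 replicates 2 and 3. PYK10 makes up most of that sum on the 7 arrays, and the other markers did not all go with it. EXPA7, a root hair expansin, was at its highest of the 9 arrays on Col-0 replicate 2, at 318, and near its lowest on Col-0 replicate 3, at 28.6. EXPA18, also of root hairs, read 142 and 30.3 there, against 130 to 184 on the 7 arrays, and UPB1, a root transcription factor, read 8.30 and 30.3 against 56.5 to 118. The median log2 signal of the 4 markers was highest on Col-0 replicate 2, at 7.71. In bulk tissue, fewer cells of a type and less RNA per cell cannot be told apart. Col-0 replicates 2 and 3 stood apart over all tested probe sets, and whether their marker values reflect the tissue was not tested.

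Over the 7 arrays the 12 genes most like ICL correlated with it at 0.954 to 0.985, with a median of 0.966, while the median over all 13355 annotated genes was -0.134. These values chose the genes and are a description. The 7 arrays hold few distinct levels of ICL, namely a high pair, 3 intermediate arrays and a low pair, and all were made from root tubes of the same growth scheme. Leaving out the high pair, which lies farthest from the median, the correlations were 0.804 to 0.981 on 5 arrays, and 6 of 12 genes remained at 0.95 or more. Leaving out cngc19 replicate 3 they were 0.938 to 0.984, and 9 of 12 remained. Of all 13355 annotated genes, 377 were at 0.95 or more on the 5 arrays and 15 without cngc19 replicate 3. The 12 genes were chosen on arrays that include these, which favours their remaining, so the counts are a description. The 12 genes ranged less than ICL: their ranges over the 7 arrays were 0.26 to 2.41 on the log2 scale, with a median of 0.91, against 4.44 for ICL.

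Of the 12, 4 have a gene symbol of their own, and 3 of these 4 encode chloroplast proteins. How many of the rest of the 12, or of all annotated genes, do so was not counted. RCA, rubisco activase, which keeps the carbon-fixing enzyme of the chloroplast active, had r = 0.984 with ICL. It read 31.2, 259 and 1171 on the Col-0 arrays, 83.8, 95.7 and 105 on the cngc1-3 arrays and 235, 210 and 32.8 on the cngc19 arrays. On the 7 arrays RCA was thus high, intermediate and low on the same arrays as ICL, while on Col-0 replicate 3, where ICL was 10.35, RCA was at its highest.

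TROL, a rhodanese-like protein of the thylakoid membrane, had r = 0.973. It read 23.3, 26.2 and 615 on the Col-0 arrays, 28.5, 35.5 and 31.4 on the cngc1-3 arrays and 74.0, 67.1 and 10.2 on the cngc19 arrays. TRXF2, an f-type thioredoxin that passes reducing power to chloroplast enzymes, had r = 0.967, and read 27.0, 14.3 and 185 on the Col-0 arrays. On the cngc1-3 arrays TRXF2 was at 33.0, 42.6 and 40.2, and on the cngc19 arrays at 61.1, 54.2 and 21.1. Like RCA, both genes were brightest on Col-0 replicate 3, where ICL was among its dimmest.

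CP1, a cysteine proteinase, had r = 0.958 and the second widest range of the 12 genes over the 7 arrays, 1.95 on the log2 scale. Its signals were 21.8, 149 and 49.7 on the Col-0 arrays, 47.0, 57.7 and 86.0 on the cngc1-3 arrays and 109, 130 and 23.5 on the cngc19 arrays. Within each of the mutant lines, CP1 put the arrays in the same order as ICL, which its choice by correlation over these same arrays favoured.

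The other 8 genes are listed by locus only. AT5G24490 had the highest correlation of all, 0.985. It read 112, 114 and 122 on the cngc1-3 arrays and 169, 167 and 94.4 on the cngc19 arrays, and 1023 on Col-0 replicate 3. AT5G13770 had r = 0.969 and a range of 1.65 on the log2 scale over the 7 arrays. Its signal was 1.67 and 1.45 on the 2 low arrays, Col-0 replicate 1 and cngc19 replicate 3, 16.9 to 19.6 on the cngc1-3 arrays and 37.9 and 38.8 on cngc19 replicates 1 and 2. AT4G35220 (r = 0.965) was far above the array median on all 7 arrays and differed little among them, from 224 on cngc19 replicate 3 to 325 on cngc19 replicate 2.

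AT4G20790 (r = 0.970) and AT3G25280 (r = 0.959), a member of the NRT1/PTR transporter family, did not exceed 3.41 and 18.0 on the 7 arrays. Both stayed under the lowest array median of 31.99 on all 7, and neither passed the filter on low values, which 10 of the 12 genes passed. The genes just inside the threshold were AT3G11580 at 0.955 and AT5G52450 and AT1G10350 at 0.954. Just outside were PSAE-1 at 0.947, a photosystem I subunit, and AT1G78890 and ACLA-1 at 0.940. ACLA-1, a subunit of the ATP-citrate lyase that makes cytosolic acetyl-CoA, was at 819 to 926 on the cngc1-3 arrays and at 973, 1073 and 667 on the cngc19 arrays.

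**Figure D2:**
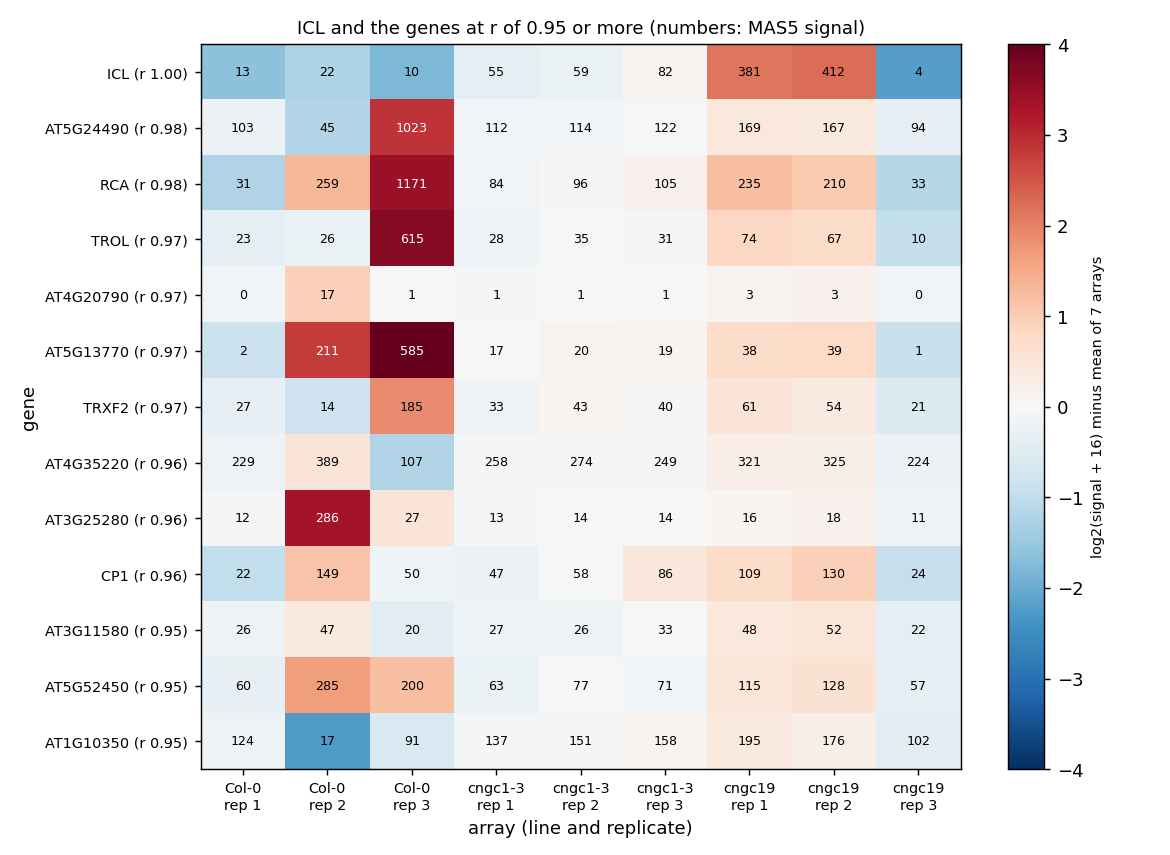
Each row is ICL or one of the 12 genes at r of 0.95 or more, each column is an array, the printed number is the MAS5 signal and the colour is log2(signal + 16) minus the gene's mean over the 7 arrays. The rows share a high pair at cngc19 replicates 1 and 2 with ICL, with smaller differences, and depart from ICL and from each other on Col-0 replicates 2 and 3.

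Col-0 replicates 2 and 3 were left out of the correlation that chose the genes. All 9 arrays set which probe set stood for a gene with several. On Col-0 replicate 3, where ICL was 10.35, 7 of the 12 genes were above their highest value on the 7 arrays, or 58.3%, against 48.7% of all annotated genes. On Col-0 replicate 2 the count was also 7 of 12, or 58.3%, against 55.5% of all annotated genes. Both shares are near those of all annotated genes on these arrays and are no result about the 12. Over all 9 arrays the correlations of the 12 genes with ICL were -0.191 to 0.769, with a median of 0.115, and none reached 0.95.

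Genes that ran opposite to ICL were also found, 14 at a correlation of -0.95 or less over the 7 arrays. The 5 lowest were AT2G05755 at -0.979, AT4G01890 at -0.977, AT4G09710 at -0.970, AT4G19095 at -0.968 and AT4G22212 at -0.966. AT4G22212 was bright, at 4795 on Col-0 replicate 1 and 4701 on cngc19 replicate 3. It was at 2276, 1635 and 1573 on the cngc1-3 arrays and at 916 and 892 on cngc19 replicates 1 and 2. On Col-0 replicates 2 and 3 it was at 24.4 and 33.8, so that it too parted from the pattern of the 7 arrays there.

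Photosynthesis genes, listed as markers of shoot tissue, ran alongside ICL over the 7 arrays. Of 49 listed, 11 had a named probe set, and all 11 correlated positively with ICL, at 0.372 to 0.984 with a median of 0.885. Among all 13355 annotated genes 5417 correlated positively. The list was chosen with earlier results of these data known, so these values are a description. How far the 11 genes vary together was not tested, so they do not count as 11 separate observations. After RCA, the closest were PSAE-1, LHCB4.2 at 0.935, a light-harvesting protein of photosystem II, and PSBY at 0.915, a small photosystem II protein. The lowest was LHCB4.3, at 0.372. RCA was the only one of the 11 at 0.95 or more, and 4 of the 57 annotated genes at 0.90 or more were on the list.

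The summed signal of the 11 photosynthesis genes was 204, 1945 and 37215 on the Col-0 arrays. It was 922, 885 and 1575 on the cngc1-3 arrays and 2034, 1767 and 291 on the cngc19 arrays. The array that is highest for photosynthesis genes, Col-0 replicate 3, is thus one of the lowest for ICL. Col-0 replicate 2 was level with cngc19 replicates 1 and 2 for the photosynthesis sum, while its ICL signal was 22.4 against 381 and 412. Col-0 replicate 2 correlated at only -0.040 to -0.019 with the arrays used for the correlation, and its spiked-in control signals were 16.5 times the median of arrays. The array medians of Col-0 replicates 2 and 3 were 63.85 and 66.27, against at most 42.16 on the others. How far sums on these Col-0 arrays compare with the others was not tested. The part of shoot material in the ICL values was not tested.

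The single genes differed on Col-0 replicate 2. The signals of PSAE-1 were 13.8, 16.5 and 7052 on the Col-0 arrays, 79.5, 84.5 and 211 on the cngc1-3 arrays and 347, 296 and 17.6 on the cngc19 arrays, so that it was low on Col-0 replicate 2 with ICL. PRK, phosphoribulokinase of the Calvin cycle, was at 6.25, 366 and 1441 on the Col-0 arrays. It was at 43.2, 38.2 and 111 on the cngc1-3 arrays and at 123, 98.4 and 13.5 on the cngc19 arrays. Over all 9 arrays the 11 genes correlated with ICL at -0.288 to 0.221, with a median of 0.024.

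**Figure D3:**
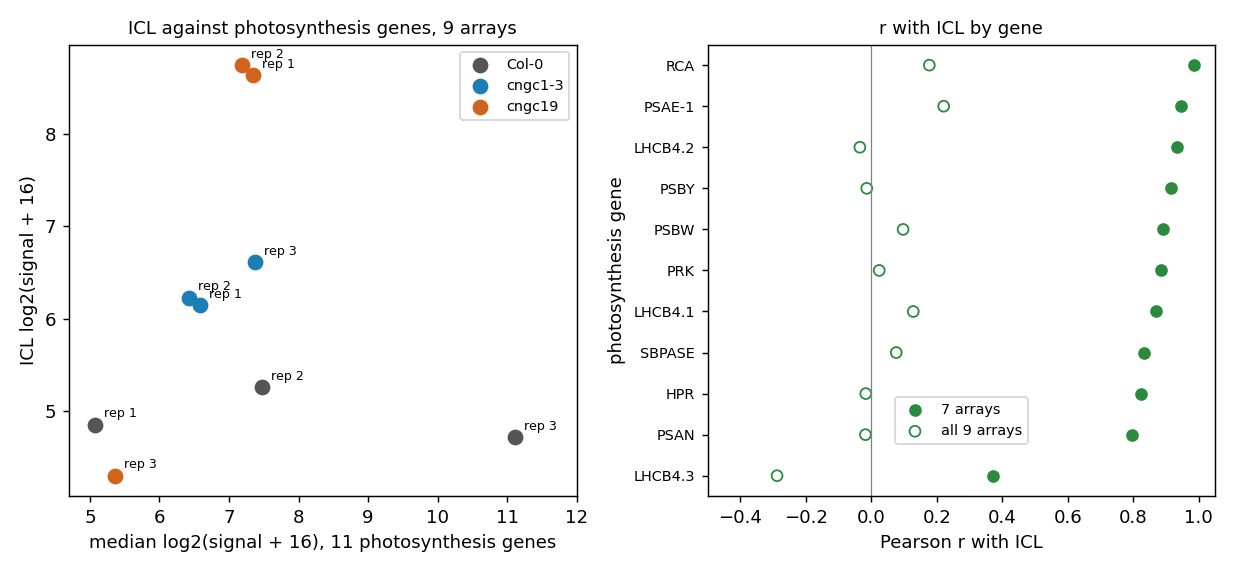
At left, log2(signal + 16) of ICL is plotted against the median of 11 photosynthesis genes for each array, coloured by line. At right, the Pearson r of each of the 11 genes with ICL is given over 7 arrays (filled) and over all 9 (open): the filled points reach from 0.372 to 0.984 and the open ones from -0.288 to 0.221, and Col-0 replicate 3 is the point at far right of the left panel.

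In the limma fit no probe set had an adjusted p under 0.05 in any of the 3 line comparisons, so that 0% were called in each. The smallest adjusted p was 0.181 for cngc1-3 against Col-0, 0.273 for cngc19 against Col-0 and 1 for cngc1-3 against cngc19. The counts at an unadjusted p under 0.05 were 3301, 2464 and 13 of 13648. Without Col-0 replicate 1, 4938 and 4603 probe sets were called in the comparisons with Col-0, which then rest on Col-0 replicates 2 and 3, the arrays that stand apart. With all 9 arrays and array weights the counts were 1228 and 1047. Without cngc19 replicate 3 the counts were 12 and 11.

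The fit gave the photosynthesis genes a direction that turned with the Col-0 arrays used. All 11 were lower in both mutant lines than in Col-0 with 9 arrays, with median log2 differences of -1.14 for cngc1-3 and -1.24 for cngc19. The median over all tested probe sets was -0.03 and 0.05, with 6969 and 6549 of 13648 lower. With Col-0 represented by replicate 1 only, all 11 were higher, and the medians were 1.74 and 1.81. The direction for ICL was the same with and without those arrays.

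Among genes next to ICL in metabolism, few had a named probe set, and malate synthase, the partner of ICL, was not analysed here. Of 16 genes listed for the glyoxylate cycle and its malate and citrate partners, PPDK was the one other gene that could be read. PPDK encodes pyruvate orthophosphate dikinase, which makes phosphoenolpyruvate from pyruvate. PPDK read 14.0, 34.3 and 143 on the Col-0 arrays, 4.695, 19.5 and 17.8 on the cngc1-3 arrays and 28.0, 29.9 and 15.5 on the cngc19 arrays. PPDK did not pass the filter on low values and correlated with ICL at 0.65 over the 7 arrays.

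Of 21 genes listed for peroxisomal beta-oxidation and the release of fatty acids, which feed the cycle, 3 had a named probe set. Of these, 2 passed the filter on low values, and none was called, as held for all tested probe sets. AIM1, a multifunctional protein of peroxisomal beta-oxidation, correlated at 0.105 with ICL over the 7 arrays. AIM1 read 234, 22.6 and 167 on the Col-0 arrays, 141, 264 and 124 on the cngc1-3 arrays and 222, 306 and 258 on the cngc19 arrays, so that the 3 cngc19 arrays were alike for AIM1. SDP1, the lipase that starts the breakdown of seed oil, correlated at -0.701, with 45.7 and 60.4 on cngc19 replicates 1 and 2 and 112 on replicate 3. SDP1-LIKE, which did not pass the filter and did not exceed 28.7 on the 7 arrays, correlated at -0.348.

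Isocitrate dehydrogenases, which draw on the same substrate as ICL, ranged less than ICL over the 7 arrays. Their ranges were 0.49 to 0.92 on the log2 scale, against a median of 1.0 over all tested probe sets. Of 16 genes listed for the citric acid cycle and these enzymes, 6 had a named probe set and all 6 were tested. None was called, as held for all tested probe sets. ICDH, the NADP-dependent isocitrate dehydrogenase of the peroxisome, was closest to ICL at r = 0.814. Its signals were 90.2, 38.3 and 5.21 on the Col-0 arrays, 113, 117 and 115 on the cngc1-3 arrays and 128, 112 and 80.8 on the cngc19 arrays. It ranged over 0.57 on the log2 scale across the 7 arrays, against 4.44 for ICL.

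The cytosolic enzyme cICDH was at 2866, 225 and 1101 on the Col-0 arrays and between 3123 and 4031 on the 6 mutant arrays, with r = 0.21. IDH-V and IDH-VI, subunits of the mitochondrial NAD-dependent enzyme, correlated at 0.39 and 0.11, AT5G14590 at -0.204 and SDH1-1, a subunit of succinate dehydrogenase, at 0.331. In the fit, all 6 genes were higher in both mutant lines than in Col-0, and the median log2 differences were 1.38 and 1.22. Of all 13648 tested probe sets, 6679 and 7099 were higher. With Col-0 represented by replicate 1 only, the medians fell to 0.20 and 0.12, with 6 and 5 of 6 higher. On Col-0 replicates 2 and 3 all 6 genes were below their mean over the 7 arrays. Of all 13355 annotated genes other than ICL, 8925 and 8739 were above that mean on these arrays, and the rest were not.

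Genes known to rise on sugar starvation or in the dark went both ways with ICL. Of 27 listed, 10 had a named probe set, all tested, with 4 of 10 correlated positively and a median of -0.163. Of all 13355 annotated genes 5417 did so, with a median of -0.134. The list is near these values, so its share and median are no result about it. IVD, isovaleryl-CoA dehydrogenase of leucine breakdown, correlated at 0.683 and ETFBETA, which takes up its electrons, at 0.832. ETFBETA was at 110, 10.7 and 114 on the Col-0 arrays, 162, 161 and 212 on the cngc1-3 arrays and 179, 206 and 98.4 on the cngc19 arrays. ATG8E, an autophagy protein, ran the other way at -0.763, with 331 and 274 on cngc19 replicates 1 and 2 and 673 on replicate 3. AKINBETA1, a subunit of the energy-sensing SnRK1 kinase, was at -0.718.

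In the fit none of these 10 genes was called, with 5 of 10 higher in cngc1-3 than in Col-0 (median 0.09) and 7 of 10 higher in cngc19 (median 0.17). Of 16 senescence genes, 4 had a named probe set, and none was called. SAG29, a sugar transporter of the SWEET family, correlated with ICL at 0.83, with 34.3, 42.1 and 6.86 on the cngc19 arrays. WRKY53, a transcription factor of early leaf senescence, correlated at -0.849, with 17.9, 11.9 and 88.2 on the same arrays. SAG101 and WRKY6 correlated at -0.558 and 0.062.

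**Figure D4:**
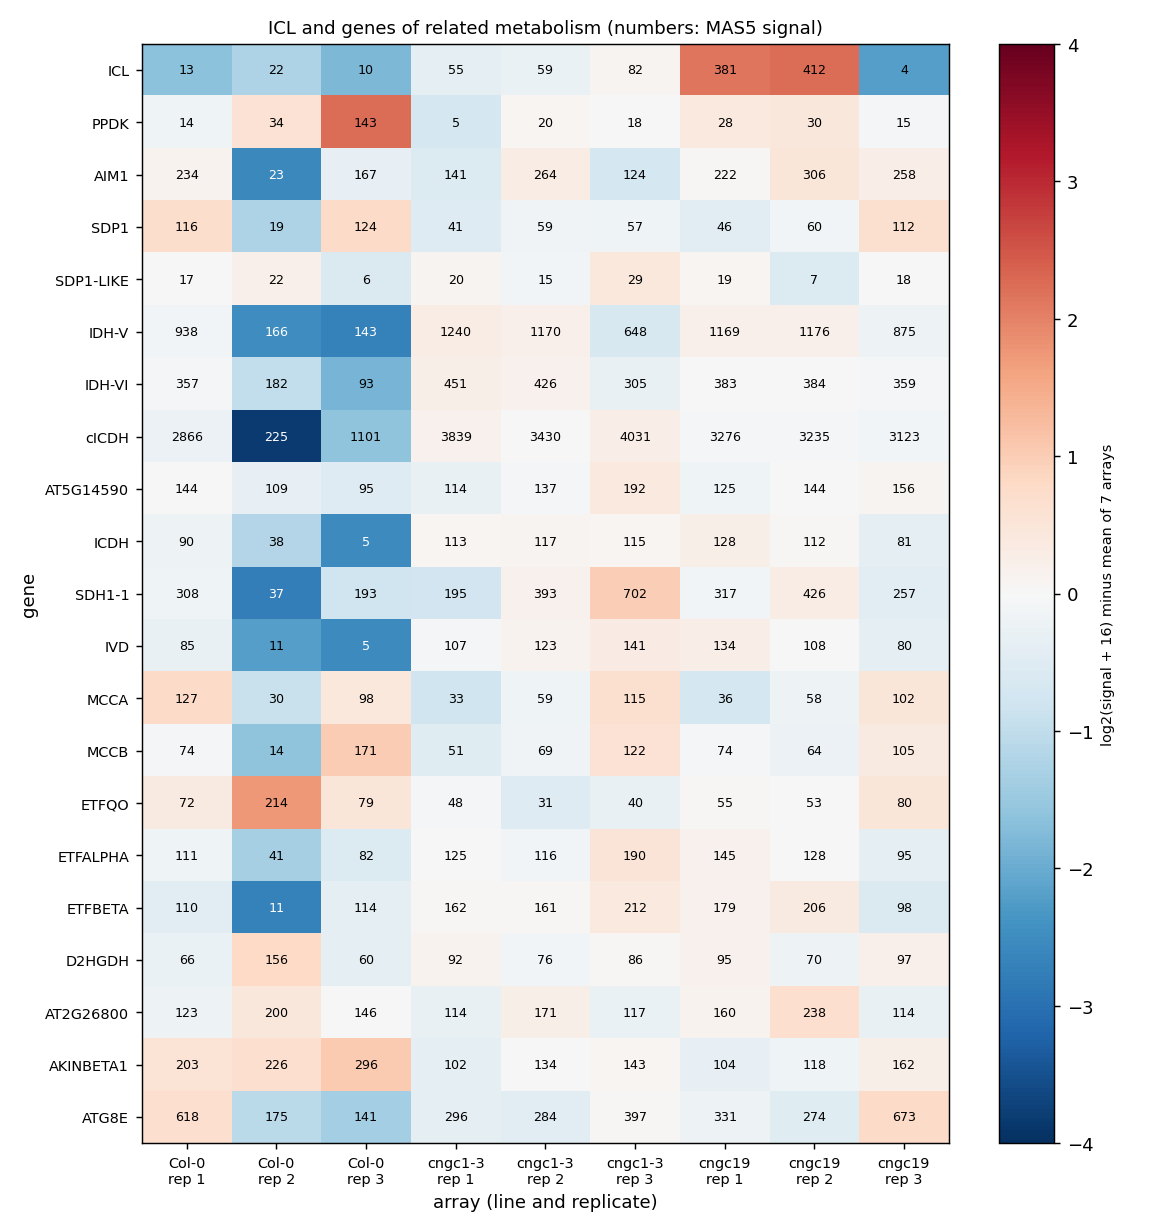
ICL is shown with 20 genes of the glyoxylate, beta-oxidation, citric acid cycle and sugar starvation lists, the printed number being the MAS5 signal on each array and the colour log2(signal + 16) minus the gene's mean over the 7 arrays. The step of ICL from 3.77 to 412 within cngc19 has no counterpart of its size in the other rows, where the darkest cells fall on Col-0 replicates 2 and 3.

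Seed storage and oil body genes, which mark the seed stage in which ICL is best known, were dim on most arrays, whether ICL was bright or dim. Of 18 listed, 4 had a named probe set, and 1 of these passed the filter on low values. Their summed signal was 34.9 and 22.5 on cngc19 replicates 1 and 2, 38.6 on replicate 3, 24.7 to 112 on the cngc1-3 arrays and 41.4, 442 and 276 on the Col-0 arrays. OLEO3, an oleosin of oil bodies, was at 11.5 and 18.5 on cngc19 replicates 1 and 2 and at 332 on Col-0 replicate 2. The correlations of the 4 genes with ICL over the 7 arrays were -0.265 to 0.066.

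The genes beside ICL on the chromosome were looked at by their order in the RefSeq table. AT3G21710 and FOLB3, its direct neighbours, have no single-symbol probe set here. Farther out, AT3G21690 correlated with ICL at 0.71, SGP2 at -0.55 and UGT71B1 at 0.62. AT3G21690 was at 176 and 176 on cngc19 replicates 1 and 2 and at 61.3 on replicate 3, and it ranged from 35.9 to 154 on the cngc1-3 arrays, where ICL lay between 54.7 and 82.0.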

How the data were processed

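Per the submitters' processing notes, which name GCOS and MAS5, the authors deposited signal intensities. The values fit a linear scale. The genome build and further settings are not given in the sources used here. After trimming 2% at each end, array means were 98.9 to 99.6, so the deposited scaling was kept. Groups and replicate numbers came from titles. Nothing says that tubes were separate cultures, so p-values measure the spread between tubes, which may be technical.

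Intensities were taken as log2(signal + 16), which understates changes of dim probe sets. Probe sets at or above the 40th percentile of mean log2 signal, 13648, entered limma 3.58.1 in R 4.3.3 (lmFit, eBayes with trend, all 9 arrays, 6 residual degrees of freedom, two-sided, Benjamini-Hochberg). The steps were tested on simulated data. Correlations used Python 3.11.15, numpy 2.4.6, pandas 2.3.3 and scipy 1.17.1, and plots matplotlib 3.10.9, with a gene of several probe sets read by the one of highest mean.

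The platform's annotation gave 13513 probe sets 1 symbol, 503 several and 8730 none. Of the first, 13436 were updated through RefSeq (TAIR10.1), while 77 stayed as given. The members and the 8 gene lists (190 genes, 44 with a named probe set) were chosen with earlier results of these data known. Named genes were ICL, list members with a probe set, the 15 genes of highest correlation, those nearest the threshold and the 5 lowest. UGT73B4, the chromosomal neighbours and any gene beyond this rule were chosen after their values were seen.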

Additional observations from a re-analysis of the deposited data

How the results depend on the processing

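The 3 ICL differences kept their direction under every alternative run (pseudocounts of 1 and 64, quantile normalization, arrays centred on the median, array weights, replicate block, arrays left out). For cngc1-3 against Col-0 the settings gave 0.70 with a pseudocount of 64 to 2.07 with a pseudocount of 1, and 1.24 to 1.54 with an array left out. Array weights gave 3.77 for cngc19 against Col-0 and -2.38 for cngc1-3 against cngc19. With each array left out in turn these were 1.52 to 3.74 and -2.36 to -0.14. Probe sets called numbered 1228, 1047 and 9 with array weights. With an array left out they were 0 to 4938 for cngc1-3 against Col-0 (4938 without Col-0 replicate 1), 0 to 4603 for cngc19 against Col-0, and 0 for cngc1-3 against cngc19. The cause was not tested.

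The 12 genes at 0.95 or more became 39 by Spearman's rho, 20 with a pseudocount of 1, 25 with arrays centred on the median, 2 at a threshold of 0.98, 57 at 0.9 and 0 over all 9 arrays. Leaving out 1 of the 7 arrays gave 14 to 86, the most without cngc1-3 replicate 3, and fewer arrays let more genes pass by construction. Pseudocount 64 gave 9, quantile normalization 15 and the filtered probe sets 10.

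Same-numbered arrays of different lines had correlations of deviations from -0.23 to 0.19. Differently numbered arrays were not set beside them, so whether the numbers pair the arrays cannot be told from these values. With the replicate number as a block, 0 probe sets were called in each comparison and the ICL differences were 1.38, 2.28 and -0.90. With 3 arrays a line, their number limits the precision.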

Other observations

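Over all 9 arrays, the gene whose log2(signal + 16) correlated highest with ICL was UGT73B4, a UDP-glycosyltransferase, at r = 0.938, and at 0.928 over the 7 arrays. It was chosen after its values were seen, and both values are descriptions. Its signals were 2.35, 18.9 and 3.84 on the Col-0 arrays, 30.9, 56.4 and 90.2 on the cngc1-3 arrays and 115, 128 and 1.20 on the cngc19 arrays. UGT73B4 thus placed the 7 arrays in the same order as ICL, with a Spearman rho of 1.0, and was low on Col-0 replicates 2 and 3 as ICL was. AT1G78890 came next over 9 arrays, at 0.906.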
